A study of Mus musculus with 12 samples.

Results

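The genes described are 40 genes of the endoplasmic reticulum (ER) folding machinery and of the unfolded protein response in mouse bone marrow–derived macrophages (BMDMs). They were chosen by name, and all 40 were found among the 43626 gene identifiers of the count files and passed the filter on low counts, as 40 of 14308 genes tested. By step they comprise 10 chaperones of the Hsp70 and Hsp90 families with their co-chaperones, 3 genes of the lectin cycle, 8 of disulfide formation, 11 of ER-associated degradation (ERAD), 3 of translocation, and 5 stress sensors and transcription factors.

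Secreted and membrane proteins enter the ER through the Sec61 channel, are folded by chaperones such as Hspa5 (BiP), receive disulfide bonds from protein disulfide isomerases, and, when misfolding persists, are returned to the cytosol for degradation. An excess of unfolded protein is sensed by Ern1 (IRE1), Eif2ak3 (PERK), and Atf6. Ern1 splices the mRNA of Xbp1, Eif2ak3 slows translation by phosphorylating a translation initiation factor, and Atf6 is cleaved in the Golgi to release a transcription factor, and these arms raise the transcription of chaperone and ERAD genes. Macrophages activated through TLR4 are known to engage parts of this response, including Xbp1.

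RNA-Seq was performed on 12 libraries of BMDMs, 3 for each of 4 conditions. The conditions were PBS, 3′-sialyllactose (3′SL, a milk sugar of lactose and sialic acid) at 100 μg/mL, lipopolysaccharide (LPS, a TLR4 ligand from gram-negative bacteria) at 10 ng/mL, and LPS together with 3′SL, each for 6 hours. The labels call 3′SL by the abbreviation HMO and describe injected mice under treatment, so doses and time were taken from the study's methods. No strain, donor, or batch is given by the labels, and the study calls the libraries of a condition independent biological samples without saying whether they came from separate animals or cultures, so p-values measure only the spread between these libraries.

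Between 20411741 and 26851890 reads per library were counted on genes (median 23375851). Levels are given as CPM (counts scaled to a common library size by TMM factors, which assume that most genes do not change). After condition means were removed, the libraries fell into 3 sets of 4, with 1 library of each condition per set. Residuals correlated at a mean of 0.596 within sets and -0.346 between sets. The sets follow the running numbers of the libraries but are not named by the labels, so per-library values are given in the order of sets 1, 2, and 3. Any p-value from a fit with the sets as a block uses a grouping found in the same counts. The macrophage markers summed to 18000–31100 CPM in every library, led by Lyz2. Stromal markers summed to 680–790 CPM in set 1 and to 28.2–128 CPM in the other sets, and neutrophil markers to 141–1030 CPM, with the highest sums in set 3. T and NK cell markers summed to 8.18–15.7 CPM, with Cd3e, Cd3g, and Gzma at 0 in every condition, B and plasma cell markers to 62.1–282 CPM, and dendritic cell markers to 2.03–19.2 CPM. The 6 genes that check the LPS treatment, led by Acod1, summed to 29.6–90.5 CPM with PBS, 39.3–199 CPM with 3′SL, 15000–19300 CPM with LPS, and 8950–15300 CPM with LPS + 3′SL. The 3′SL library of set 3 stood apart from the other 3′SL libraries, with 199 CPM of these genes beside 57.9 and 39.3 CPM. Set 3 held the highest sum in every condition, with 90.5 CPM beside 29.9 and 29.6 CPM for PBS. That 3′SL library also had the highest share of reads on no gene or on several (11.27%, with 8.99–10.78% in the others), leaving aside alignments that were not unique. The LPS + 3′SL (10.78%) and LPS (10.73%) libraries of set 3 came next.

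The promoters of many of these genes carry the ER stress response element, to which NF-Y and the active forms of Atf6 and Xbp1 bind. A promoter window of 250 bases before to 50 bases after the RefSeq start (GRCm38.p6) was matched for 33 of 40 genes, the unmatched ones being Hyou1, Sil1, Manf, Hspa13, Derl1, Sec61a1, and Atf6. The letters CCAAT and CCACG separated by 9 bases, searched on both strands, were found in the windows of 10 of these 33 genes (30.3%) against 37 of 27025 genes overall (0.137%). The related letters ATTGG and CCACG separated by 1 base were found in Dnajb11 and Herpud1 (6.1% against 0.044%). The letters TGACGTGG were found in none of the 33 windows (0.714% of all genes), and TGATGNAA in Herpud1 only (3.0% against 4.51%). The genes were chosen by name as genes of this response, so their higher share is no independent finding. Matches are descriptions of the sequence and not shown to be sites in use. The stretches below, in the direction of transcription and with the fixed letters in capitals, belong to the 7 genes with an element that the block fit called higher with 3′SL alone, and to Calr and Ero1lb as genes with an element that it did not call. Dnajb11, Canx, and Pdia6 also hold an element and were not called, and their stretches are not printed.

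Hspa5, chr2:34772005-34772063, + strand, 47 bases before the start: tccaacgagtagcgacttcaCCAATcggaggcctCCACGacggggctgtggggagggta
Hsp90b1, chr10:86705618-86705676, - strand, 194 bases before the start: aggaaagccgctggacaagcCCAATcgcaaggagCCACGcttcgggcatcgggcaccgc
Hsp90b1, chr10:86705513-86705571, - strand, 89 bases before the start, reverse orientation: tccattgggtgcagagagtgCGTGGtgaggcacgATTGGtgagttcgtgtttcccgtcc
Dnajc3, chr14:118937807-118937865, + strand, 87 bases before the start: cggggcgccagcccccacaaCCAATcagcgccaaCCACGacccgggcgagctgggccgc
Creld2, chr15:88819500-88819558, + strand, 108 bases before the start, reverse orientation: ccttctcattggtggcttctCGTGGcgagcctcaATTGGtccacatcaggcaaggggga
Syvn1, chr19:6046512-6046570, + strand, 26 bases before the start: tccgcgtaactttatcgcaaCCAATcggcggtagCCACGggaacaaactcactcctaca
Derl3, chr10:75893222-75893280, + strand, 138 bases before the start, reverse orientation: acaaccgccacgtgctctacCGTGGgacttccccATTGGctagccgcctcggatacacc
Herpud1, chr8:94386357-94386407, + strand, 42 bases before the start: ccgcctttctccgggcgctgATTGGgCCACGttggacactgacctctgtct
Calr, chr8:84847055-84847113, - strand, 144 bases before the start, reverse orientation: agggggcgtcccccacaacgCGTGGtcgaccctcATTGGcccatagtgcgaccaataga
Ero1lb, chr13:12565662-12565720, + strand, 183 bases before the start, reverse orientation: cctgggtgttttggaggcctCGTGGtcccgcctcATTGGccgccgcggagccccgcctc

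The machinery was expressed across its whole width in BMDMs. Per kilobase of exon and averaged over the 12 libraries, Hspa5 had the highest level at 533 CPM per kb, followed by Calr at 433, Pdia3 at 284, Hsp90b1 at 238, and P4hb at 236 CPM per kb. The sensors lay far lower, with 17.4 CPM per kb for Atf6, 7.60 for Ern1, and 5.22 for Eif2ak3, while Xbp1 reached 58.5 CPM per kb. Ero1lb (3.93 CPM per kb) and Derl3 (0.389 CPM per kb) were the lowest, and Derl3 was counted at only 2 to 64 reads per library. Over the 40 genes, condition accounted for a median of 79.6% of the variance of log2 CPM between libraries, library set for 11.7%, and the rest for 6.53%, while the medians over all genes tested were 61.6%, 15.2%, and 12.4%. The share of condition ran from 40% for Sil1 to 97.4% for Eif2ak3, and library set held more than 30% in 10 of the 40 genes, with the largest share, 49.3%, in Xbp1.

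**Figure D1:**
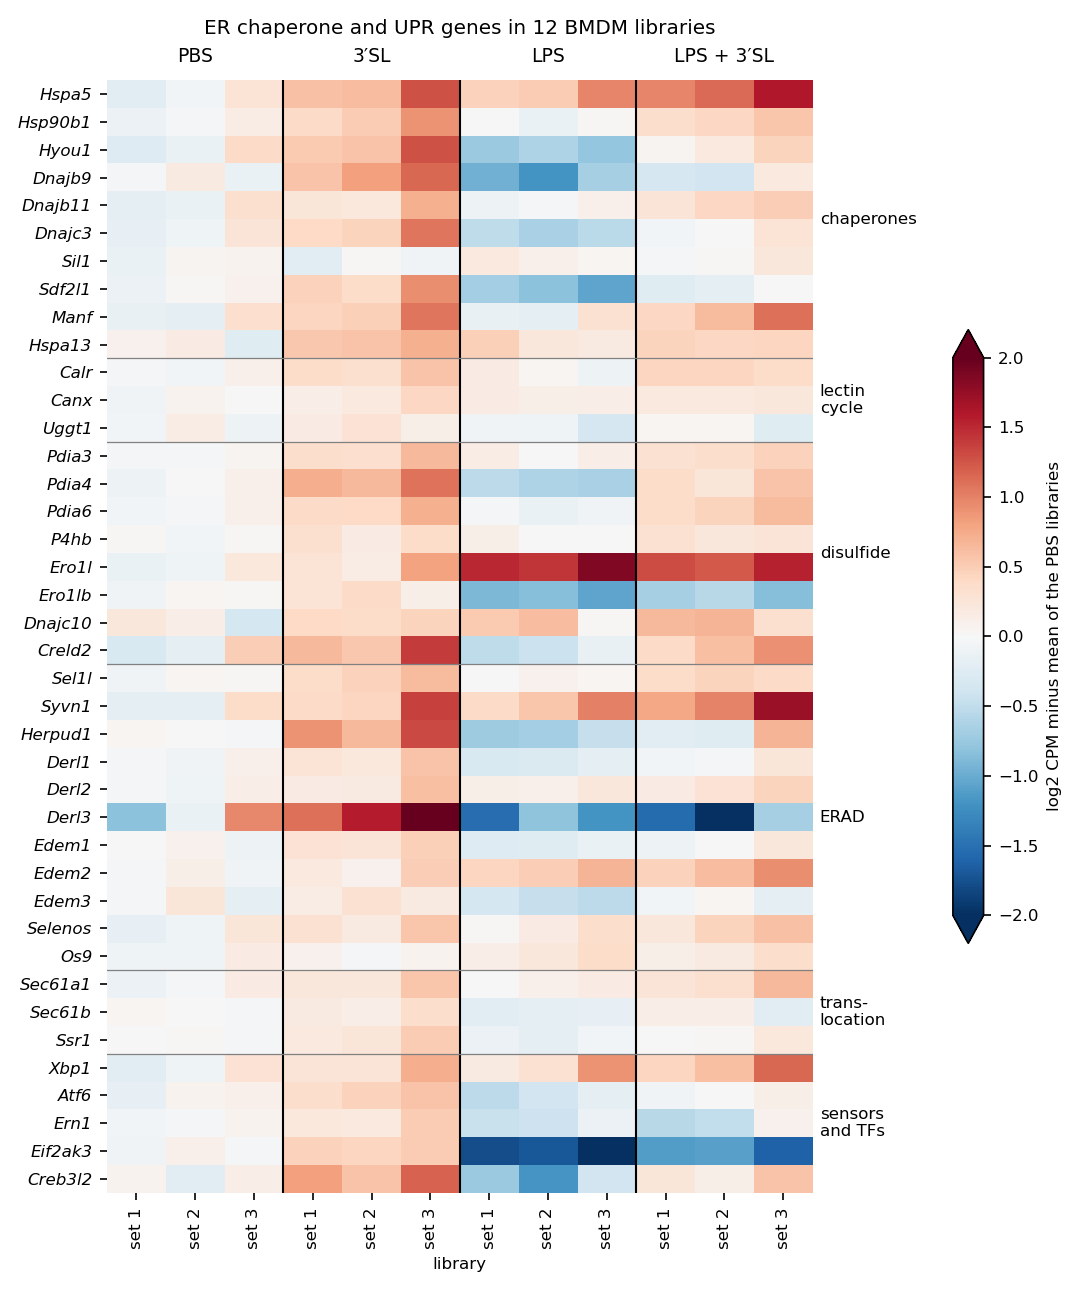
Level of each of the 40 genes in each of the 12 libraries as log2 CPM minus the mean of the 3 PBS libraries (colour scale limited at 2 on either side, 3 values beyond it), genes in rows by step and libraries in columns by condition and set. Most chaperone and disulfide genes are red with 3′SL alone, and Eif2ak3 and Ero1lb are blue in all 6 libraries with LPS.

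The first question was whether 3′SL moved these genes, in quiescent cells and in cells given LPS. With 3′SL alone, 39 of the 40 genes were higher than with PBS, the exception being Sil1, and 37 were higher within every library set. With LPS + 3′SL, 36 of 40 were higher than with LPS, the exceptions being Sil1, Ero1l, Derl3, and Os9, and 33 were higher within every set. Of all 14308 genes, 7188 were higher with 3′SL alone and 3766 were higher within every set. With LPS + 3′SL these counts were 6973 and 3040. The median log2 fold change over the 40 genes was 0.43 without LPS (0.42, 0.34, and 0.56 in the 3 sets) and 0.32 with LPS (0.26, 0.33, and 0.36), beside medians of 0.0013 and -0.0079 over all genes tested. The same 36 genes were higher both times, 32 of them in every set of both comparisons. Bulk levels cannot tell a change in RNA per cell from a change in the share of a cell type.

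No gene passed the threshold in the edgeR quasi-likelihood test, which asked for an adjusted p under 0.05 over all genes and at least a 1.5-fold difference. This was 0 of 40 genes beside 0% of all genes in both comparisons. At an unadjusted p under 0.05, edgeR gave 31 genes higher and 0 lower with 3′SL alone (6.34% of all genes higher) and 23 higher and 0 lower with LPS + 3′SL (3.60% of all genes higher). All 3 libraries with 3′SL lay above all 3 without it for 31 genes in the absence of LPS (9.02% of all genes) and for 26 genes in its presence (6.24%). DESeq2 called 6 genes higher with 3′SL alone (0.468% of all genes), which were Hsp90b1, Dnajb9, Hspa13, Pdia4, Herpud1, and Creb3l2. It called 4 with LPS + 3′SL (0.328%), which were Hyou1, Sdf2l1, Pdia4, and Creb3l2.

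With the library sets as a block, edgeR called 14 genes higher with 3′SL alone (1.98% of all genes) and 9 with LPS + 3′SL (0.685%), and none lower (0.860% and 0.762% of all genes). Without the fold minimum these counts were 29 (4.14% of all genes) and 17 (1.15%), and all 17 were among the 29. The 9 genes called both times were Hspa5, Hyou1, Dnajb9, Dnajc3, Sdf2l1, Manf, Pdia4, Creld2, and Creb3l2. Over these 9 genes the adjusted p of the block fit (edgeR) ran from 0.00137 to 0.0307 with 3′SL alone, and from 0.000833 to 0.0296 with LPS + 3′SL. Over all alternatives their adjusted p ran from 1.78e-18 to 0.91 and from 2.56e-15 to 1. Leaving out set 3 from the block fit gave 8 calls in either comparison, and leaving out set 1 or set 2 gave 0. Over all genes, calls of higher genes then also fell, to 2 and 3 with 3′SL alone and to 0 and 0 with LPS + 3′SL, and the cause was not tested. Without the 3′SL library of set 3, the median with 3′SL alone was 0.31 in place of 0.43. The sum of neutrophil markers in that library was 306 CPM, beside 556 CPM for PBS of the same set, and its part in the differences was not tested.

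**Figure D2:**
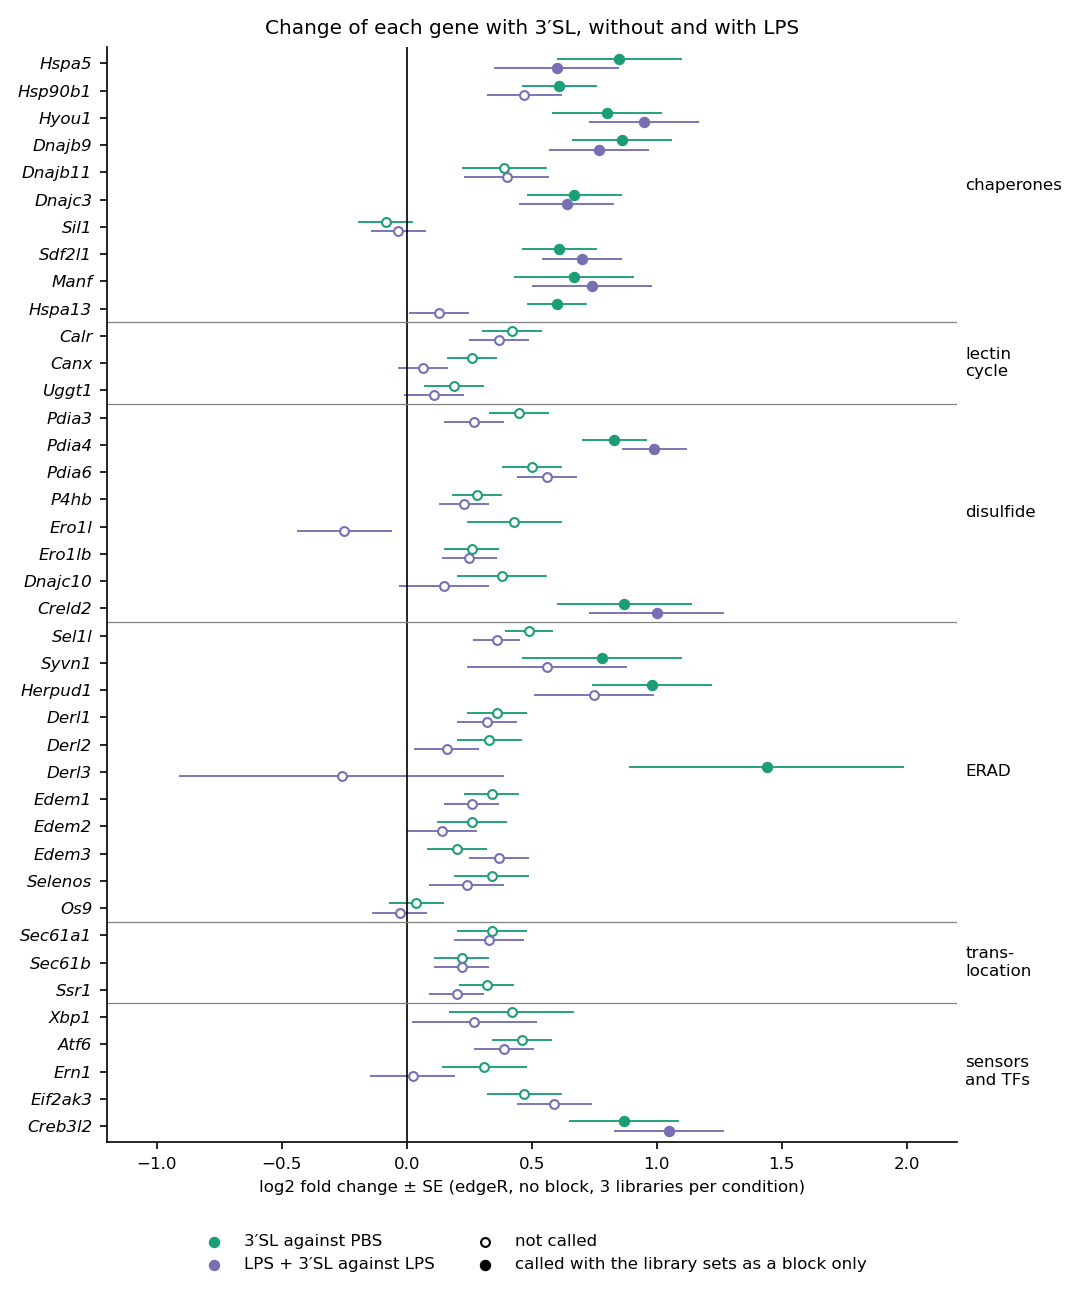
Log2 fold change ± SE of each gene with 3′SL against PBS (green) and LPS + 3′SL against LPS (purple), from edgeR without a block on 3 libraries per condition, with filled points where only the block fit, which holds a term for each library set, called the gene. Nearly all points lie to the right of 0, and the filled points gather among the chaperones, with medians of 0.64 and 0.62 for that step.

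The chaperones had the largest median of the steps, with a log2 fold change of 0.64 with 3′SL alone (8 of 10 called by the block fit) and 0.62 with LPS + 3′SL (6 of 10). Hspa5, the Hsp70 chaperone that also holds the stress sensors inactive, was at 1120, 1280, and 1600 CPM with PBS and at 1990, 2030, and 3210 CPM with 3′SL. With LPS it was at 1820, 1870, and 2600 CPM, and with LPS + 3′SL at 2610, 2900, and 4000 CPM. Its libraries did not overlap in either 3′SL comparison, and set 3 was the highest in all conditions. The log2 fold changes were 0.85 ± 0.25 (SE, edgeR adjusted p = 0.343) and 0.60 ± 0.25 (adjusted p = 0.671), or 1.81-fold and 1.51-fold.

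Hyou1, a large Hsp70-like protein that acts as a nucleotide exchange factor for Hspa5 (chr9:44379490-44392369, GRCm38), was at 228, 247, and 357 CPM with PBS and at 393, 403, and 655 CPM with 3′SL. It was at 163, 177, and 160 CPM with LPS and at 284, 312, and 370 CPM with LPS + 3′SL. The LPS libraries were the lowest and the tightest. The log2 fold changes with 3′SL were 0.80 ± 0.22 without LPS and 0.95 ± 0.22 with LPS (edgeR adjusted p = 0.33 and 0.206).

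Dnajb9 and Dnajc3 are J-domain partners of Hspa5 in the ER lumen. Dnajb9 (chr12:44205559-44210326) was at 43.1, 49.8, and 40 CPM with PBS, 65.7, 77.7, and 98.2 CPM with 3′SL, 22.7, 19.3, and 27.7 CPM with LPS, and 34.9, 33.7, and 50.7 CPM with LPS + 3′SL. Dnajc3 was at 153, 161, and 205 CPM with PBS, 227, 234, and 362 CPM with 3′SL, 121, 110, and 117 CPM with LPS, and 165, 170, and 206 CPM with LPS + 3′SL. For both genes the libraries with 3′SL lay above those without it, with and without LPS. The log2 fold changes without and with LPS were 0.86 ± 0.20 and 0.77 ± 0.20 for Dnajb9, and 0.67 ± 0.19 and 0.64 ± 0.19 for Dnajc3. Within sets, the change of Dnajb9 without LPS was 0.61, 0.64, and 1.29, the last in set 3.

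Sdf2l1, a component of ER chaperone complexes (chr16:17130138-17132383), was at 64.4, 71.4, and 74.4 CPM with PBS, 96.3, 90.5, and 134 CPM with 3′SL, 43.8, 39.7, and 33.8 CPM with LPS, and 59.3, 61.6, and 70.4 CPM with LPS + 3′SL. Its log2 fold changes with 3′SL were 0.61 ± 0.15 without LPS and 0.70 ± 0.16 with LPS. Manf, a secreted stress-induced factor that binds Hspa5 (chr9:106838312-106891979), was at 99.8, 96.6, and 138 CPM with PBS, 148, 154, and 232 CPM with 3′SL, 99.3, 95.6, and 136 CPM with LPS, and 147, 171, and 236 CPM with LPS + 3′SL. Manf thus stood at nearly the same level with PBS as with LPS in each set, and higher with 3′SL in each set, by 0.67 ± 0.24 and 0.74 ± 0.24 on the log2 scale.

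The other 4 chaperones were less uniform. Hsp90b1 (Grp94, the Hsp90 of the ER) was 0.61 ± 0.15 higher with 3′SL alone and 0.47 ± 0.15 higher with LPS + 3′SL on the log2 scale, and the block fit called the first. Dnajb11, another J-domain partner of Hspa5, was 0.39 ± 0.17 and 0.40 ± 0.17 higher, within 0.35 to 0.46 in every set, and was called in neither. Hspa13, a distant Hsp70 relative, was 0.60 ± 0.12 higher without LPS, where the block fit called it, and 0.13 ± 0.12 higher with LPS. The difference between these 2 changes was -0.47 ± 0.17 (interaction, edgeR adjusted p = 0.746). Sil1, a nucleotide exchange factor of Hspa5, differed by -0.083 ± 0.11 and -0.033 ± 0.11.

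**Figure D3:**
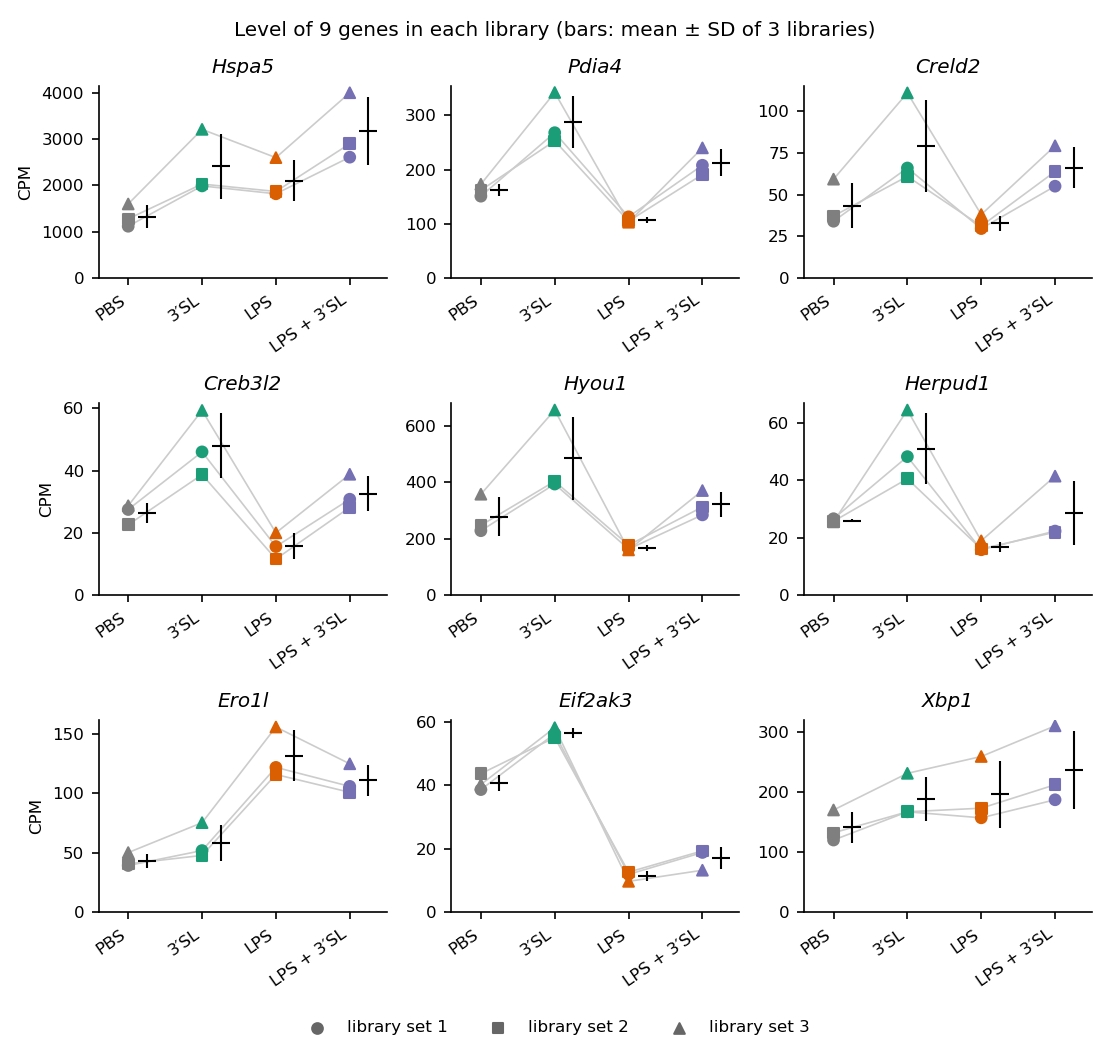
CPM of 9 genes in each library (marker shape, library set 1, 2, or 3; grey lines join libraries of a set; black bars, mean ± SD of 3 libraries) in the 4 conditions. Hspa5, Pdia4, Creld2, Creb3l2, and Hyou1 are higher with 3′SL in every set with and without LPS, Ero1l is highest with LPS, and Eif2ak3 falls from 38.6–43.6 CPM with PBS to 9.70–12.6 CPM with LPS.

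Among the genes of disulfide formation (median log2 fold change 0.44 and 0.26, 2 of 8 called by the block fit in each comparison), Pdia4 and Creld2 differed most with 3′SL. Pdia4, a protein disulfide isomerase (chr6:47796141-47813430), was at 151, 162, and 173 CPM with PBS and at 268, 253, and 342 CPM with 3′SL. It was at 113, 105, and 103 CPM with LPS and at 208, 191, and 240 CPM with LPS + 3′SL. Libraries did not overlap in either comparison, and the spread within a condition was small beside the difference. Pdia4 had the lowest adjusted p of the 40 genes with LPS + 3′SL (log2 fold change 0.99 ± 0.13, 1.99-fold, edgeR adjusted p = 0.0948, range over the alternatives 4.33e-13 to 0.54). Without the 3′SL library of set 3, which belongs to neither side of this comparison, the adjusted p was 0.0312 and Pdia4 was called. With 3′SL alone the change was 0.83 ± 0.13 (adjusted p = 0.252).

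Creld2, a stress-induced protein with isomerase activity, was at 34.1, 37.2, and 59.3 CPM with PBS, 66, 61, and 111 CPM with 3′SL, 29.7, 31.2, and 38.1 CPM with LPS, and 55.1, 63.9, and 79.3 CPM with LPS + 3′SL. The differences were 0.87 ± 0.27 and 1 ± 0.27 on the log2 scale, and between 0.71 and 1.06 in each set. Pdia3, which works with calreticulin on glycoproteins and had the highest CPM of this step, was at 744, 736, and 783 CPM with PBS, 958, 956, and 1180 CPM with 3′SL, 836, 759, and 831 CPM with LPS, and 927, 957, and 1040 CPM with LPS + 3′SL. Its changes were smaller, at 0.45 ± 0.12 and 0.27 ± 0.12, and under the fold minimum. Pdia6 differed by 0.50 ± 0.12 and 0.56 ± 0.12, P4hb by 0.28 ± 0.10 and 0.23 ± 0.10, and Dnajc10, a disulfide reductase, by 0.38 ± 0.18 and 0.15 ± 0.18.

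The 2 ER oxidases, which recharge the isomerases, behaved differently. Ero1lb was at 29.9, 32.3, and 31.7 CPM with PBS and at 38.0, 40.8, and 34.0 CPM with 3′SL, and the change was 0.26 ± 0.11 without LPS and 0.25 ± 0.11 with LPS. Ero1l was 0.43 ± 0.19 higher with 3′SL than with PBS, but 0.25 lower with LPS + 3′SL than with LPS (log2 fold change -0.25 ± 0.19), with the same sign in every set each time. Its values in every library are given with the LPS comparison.

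The lectin cycle, in which calnexin and calreticulin hold glycoproteins and Uggt1 marks unfolded ones for another round, differed little (median 0.26 and 0.11, 0 of 3 called by the block fit in either comparison, 2 and 1 at an unadjusted edgeR p under 0.05, and 0 by DESeq2). Calr was at 1040, 1020, and 1130 CPM with PBS, 1370, 1330, and 1580 CPM with 3′SL, 1190, 1090, and 992 CPM with LPS, and 1420, 1440, and 1370 CPM with LPS + 3′SL. Its libraries did not overlap in either comparison, with changes of 0.42 ± 0.12 and 0.37 ± 0.12. Canx differed by 0.26 ± 0.10 and 0.067 ± 0.10, and Uggt1 by 0.19 ± 0.12 and 0.11 ± 0.12.

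ERAD genes had a median change of 0.34 with 3′SL alone, where the block fit called Syvn1, Herpud1, and Derl3, and of 0.26 with LPS + 3′SL, where it called 0 of 11 (5 at an unadjusted edgeR p under 0.05, 0 by DESeq2). Herpud1, Derl3, and Syvn1 are given in full after their values were seen. Herpud1, a membrane component of the ERAD ubiquitin ligase complex, was at 26.6, 25.7, and 25.5 CPM with PBS, 48.2, 40.5, and 64.4 CPM with 3′SL, 15.8, 16.1, and 18.9 CPM with LPS, and 22.3, 21.9, and 41.4 CPM with LPS + 3′SL. The differences were 0.98 ± 0.24 and 0.75 ± 0.24, and the largest within-set changes, 1.34 and 1.13, were those of set 3. Syvn1 (Hrd1, the ubiquitin ligase of ERAD) was at 59.0, 60.3, and 88.0 CPM with PBS, 88.9, 91.5, and 175 CPM with 3′SL, 88.0, 99.3, and 136 CPM with LPS, and 116, 135, and 225 CPM with LPS + 3′SL. Set 3 stood above the others in all 4 conditions, and the differences of 0.78 ± 0.32 and 0.56 ± 0.32 carried the widest errors after Derl3.

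Derl3, a derlin of the retrotranslocation complex, was counted at 12, 16, and 36 reads with PBS, 36, 47, and 64 reads with 3′SL, 4, 7, and 4 reads with LPS, and 4, 2, and 7 reads with LPS + 3′SL. It was near the limit of detection, and its log2 fold changes were 1.44 ± 0.55 with 3′SL alone (2.71-fold) and -0.26 ± 0.65 with LPS + 3′SL. Edem1, which directs mannose-trimmed glycoproteins to degradation and had the highest CPM of this step, was at 306, 323, and 283 CPM with PBS, 371, 361, and 422 CPM with 3′SL, 255, 255, and 277 CPM with LPS, and 282, 303, and 356 CPM with LPS + 3′SL. Its differences of 0.34 ± 0.11 and 0.26 ± 0.11 were below the fold minimum. Sel1l, the partner of Syvn1, differed by 0.49 ± 0.095 and 0.36 ± 0.095 with nearly equal values in each set with LPS (0.36, 0.36, and 0.35). Os9, a lectin of the same complex, differed by 0.038 ± 0.11 and -0.028 ± 0.11. Derl1, Derl2, Edem2, Edem3, and Selenos lay between 0.20 and 0.36 without LPS and between 0.14 and 0.37 with LPS.

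The translocation genes differed by 0.32 and 0.22 at the median, with 0 of 3 called by the block fit in either comparison (2 and 1 at an unadjusted edgeR p under 0.05, 0 by DESeq2). Sec61a1, the pore of the channel, was at 189, 201, and 230 CPM with PBS, 242, 240, and 302 CPM with 3′SL, 206, 220, and 230 CPM with LPS, and 246, 256, and 325 CPM with LPS + 3′SL. The libraries did not overlap, and the changes were 0.34 ± 0.14 and 0.33 ± 0.14. Sec61b differed by 0.22 ± 0.11 both times and Ssr1, of the translocon-associated complex, by 0.32 ± 0.11 and 0.20 ± 0.11.

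Of the 5 sensors and transcription factors (median 0.46 and 0.39), the block fit called Creb3l2 in both comparisons. Creb3l2, an ER-membrane transcription factor that is cleaved like Atf6 and raises genes of the secretory pathway (chr6:37327255-37442146), was at 27.5, 22.6, and 28.7 CPM with PBS and at 46.0, 38.7, and 59.3 CPM with 3′SL. It was at 15.6, 11.6, and 20.0 CPM with LPS and at 30.8, 28.2, and 38.8 CPM with LPS + 3′SL. In every set the LPS library was the lowest of the 4 and the 3′SL library the highest. Its differences with 3′SL were 0.87 ± 0.22 and 1.05 ± 0.22, or 1.83-fold and 2.08-fold (edgeR adjusted p = 0.281 and 0.164).

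Xbp1, counted over all its transcripts so that spliced and unspliced forms cannot be told apart, was at 120, 132, and 170 CPM with PBS, 167, 167, and 231 CPM with 3′SL, 157, 173, and 259 CPM with LPS, and 187, 212, and 310 CPM with LPS + 3′SL. Within every set it was higher with 3′SL (0.48, 0.34, and 0.44 without LPS and 0.25, 0.29, and 0.26 with LPS), but the spread between sets was as large, and the libraries of neighbouring conditions overlapped (0.42 ± 0.25 and 0.27 ± 0.25). Atf6 was at 136, 161, and 165 CPM with PBS, 196, 212, and 228 CPM with 3′SL, 106, 117, and 135 CPM with LPS, and 146, 155, and 166 CPM with LPS + 3′SL. It did not overlap in either comparison, with changes of 0.46 ± 0.12 and 0.39 ± 0.12.

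Ern1 was at 62.2, 63.7, and 67.3 CPM with PBS, 74.2, 73.4, and 91.6 CPM with 3′SL, 47.5, 48.2, and 59.5 CPM with LPS, and 43.6, 45.9, and 68.4 CPM with LPS + 3′SL, and with LPS it differed by only 0.025 ± 0.17 between cells with and without 3′SL. Eif2ak3 was at 38.6, 43.6, and 40.2 CPM with PBS, 56.2, 55.0, and 58.1 CPM with 3′SL, 11.9, 12.6, and 9.70 CPM with LPS, and 18.8, 19.3, and 13.2 CPM with LPS + 3′SL. It was higher with 3′SL without overlap both times, by 0.47 ± 0.15 and 0.59 ± 0.15.

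**Figure D4:**
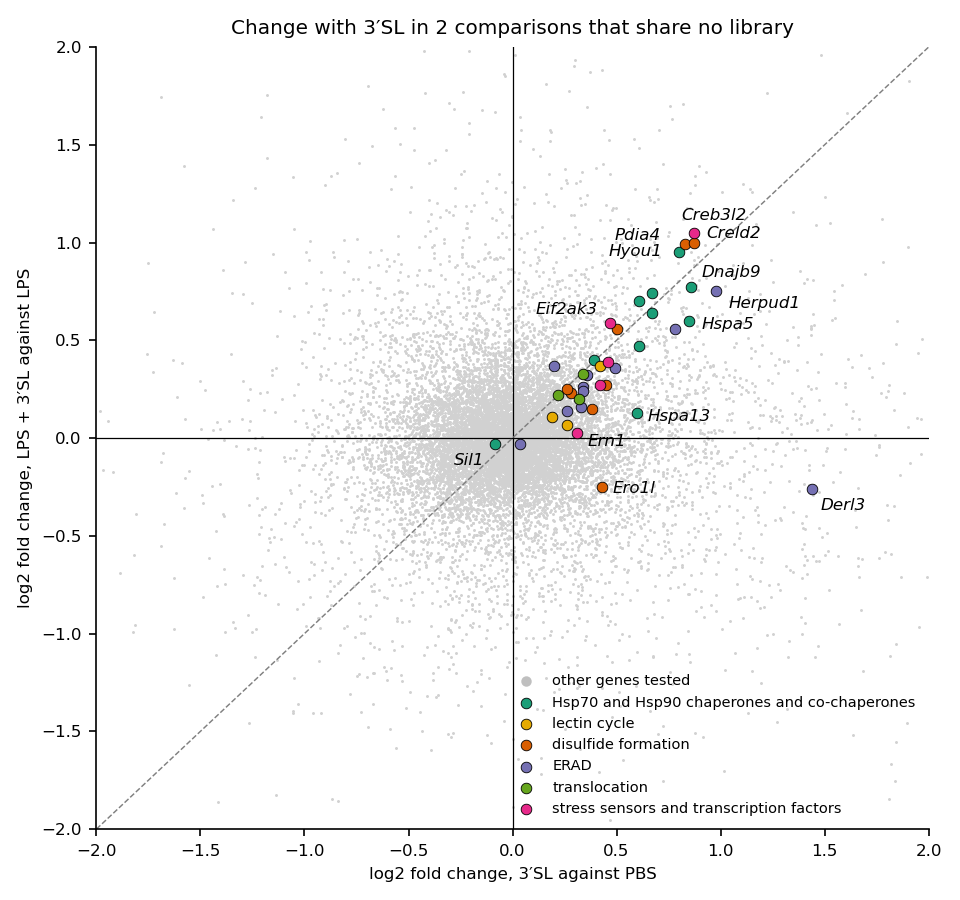
Log2 fold change with 3′SL against PBS (x axis) and with LPS + 3′SL against LPS (y axis) for the 40 genes, coloured by step, and for the other genes tested in grey (157 of those lie outside the plotted range of 2 on either side); the dashed line marks equal change. Of the 40 genes, 36 lie in the upper right quadrant, with Creb3l2, Creld2, Pdia4, and Hyou1 at 0.95 to 1.05 on the y axis, and Ero1l and Derl3 lie below the horizontal axis.

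Both 3′SL comparisons share no library, and over the 40 genes their log2 fold changes had a Pearson r of 0.506 and a Spearman rho of 0.697, where all genes tested had an r of 0.0537. Genes of a shared pathway and library set are not independent points, so these are descriptions. Set against the promoter elements, the 12 genes with either ER stress response element had a median change of 0.64 with 3′SL alone (range 0.26 to 1.44, 7 called by the block fit), and the 21 genes with a window but without an element had 0.34 (range 0.038 to 0.87, 4 called). With LPS + 3′SL the medians were 0.52 (3 called) and 0.24 (4 called), and ranges overlapped in both comparisons. Pdia4 and Creb3l2, among the genes that differed most, had windows without either element, and Ero1lb, with one, differed by 0.26 and 0.25.

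The second question was what LPS did to the same genes. LPS alone moved few of them, but unevenly. edgeR called 1 gene higher (18.3% of all genes) and 7 lower (20.2%), and the median over the 40 genes, -0.057, was that of all genes, -0.061. Ero1l was the gene that rose, and Hyou1, Dnajb9, Sdf2l1, Pdia4, Ero1lb, Eif2ak3, and Creb3l2 fell. With the library sets as a block 3 were higher, with Hspa5 and Syvn1 added (20.5% of all genes), and 9 lower, with Herpud1 and Derl3 added (24.0%). Scaling by total counts in place of TMM factors shifted the median of all genes to -0.71 and that of the 40 genes to the same value. It called Ero1l higher and 26 of the 40 genes lower, beside 1535 higher and 6657 lower of all 14308 genes. Of the 17 genes that were higher with LPS by TMM factors, 16 were lower by total counts, from -0.61 to -0.016 (Hspa5 at -0.016 and Syvn1 at -0.027), and Ero1l alone stayed higher, while the 23 lower genes stayed lower. Directions here are therefore relative to the bulk of expressed genes.

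Ero1l, the hypoxia- and stress-inducible ER oxidase (chr14:45283087-45318771), was at 39.3, 40.7, and 50.2 CPM with PBS and at 122, 116, and 156 CPM with LPS. With 3′SL it was at 51.9, 47.8, and 75.4 CPM, and with LPS + 3′SL at 106, 101, and 125 CPM. The lowest LPS library, at 116 CPM, was above the highest library without LPS, at 75.4 CPM. The rise with LPS was 1.60 ± 0.19 on the log2 scale, or 3.03-fold (edgeR adjusted p = 5.88e-05), and it was 1.64, 1.51, and 1.64 in the 3 sets.

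Eif2ak3 (chr6:70844515-70905245) fell the most, from a mean of 40.8 ± 2.54 CPM (SD, n = 3) to 11.4 ± 1.51 CPM, which was -1.84 ± 0.15 on the log2 scale or 3.58-fold lower (edgeR adjusted p = 5.09e-06). Ero1lb (chr13:12565874-12611396) fell from the PBS values given above to 16.7, 17.3, and 15.1 CPM with LPS, with 19.8, 21.2, and 17.4 CPM with LPS + 3′SL (LPS against PBS -0.93 ± 0.11, edgeR adjusted p = 6.7e-05). The 2 ER oxidases thus moved in opposite directions with LPS, and neither overlapped with PBS. Dnajb9 fell by 0.93 on the log2 scale (SE 0.20, edgeR adjusted p = 0.00319) and Sdf2l1 by 0.84 (SE 0.16, adjusted p = 0.00116).

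Hyou1 (-0.74 ± 0.22), Creb3l2 (-0.74 ± 0.22), and Pdia4 (-0.60 ± 0.13) fell with edgeR adjusted p-values of 0.0186, 0.0168, and 0.00345, and these calls depended on single libraries. Without the PBS library of set 3 the changes were -0.51, -0.67, and -0.55, and none of them was called. Hyou1 was also lost without the LPS library of set 1 (-0.72) or set 3 (-0.71), Creb3l2 without the LPS library of set 2 (-0.56), and Pdia4 without the LPS library of set 2 (-0.58) or set 3 (-0.57). The adjusted p of Pdia4 over the alternatives (edgeR or DESeq2) was 0.015 at the highest, so it missed only the fold minimum. For Hyou1 and Creb3l2 the highest were 0.0774 and 0.0635. Hspa5 was 0.65 ± 0.25 higher with LPS (edgeR adjusted p = 0.0539), and it was called without the set 3 library of PBS (0.80), of 3′SL (0.63), or of LPS + 3′SL (0.65). Herpud1 (-0.61 ± 0.24) was called without the set 3 library of 3′SL (-0.63) or of LPS + 3′SL (-0.61), and Derl3 (-1.42 ± 0.60) without the PBS library of set 1 (-1.75).

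A further 4 genes had an adjusted p under 0.05 below the fold minimum, namely Dnajc3 (-0.58), Edem3 (-0.45), and Atf6 (-0.37), all lower, and Edem2 (0.54), which was higher. Of all 14308 genes, 3208 were higher and 3458 lower at that edgeR adjusted p, and 2613 and 2889 of these also passed the fold minimum. Xbp1 was 0.48 ± 0.25 higher and Ern1 differed by -0.32 ± 0.17, and neither passed (edgeR adjusted p = 0.135 and 0.154). The abundant folding genes stood close to their PBS levels, with log2 fold changes of -0.036 for Hsp90b1, 0.037 for Calr, 0.13 for Canx, 0.10 for Pdia3, and 0.033 for P4hb, each with an SE of 0.15 or less.

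**Figure D5:**
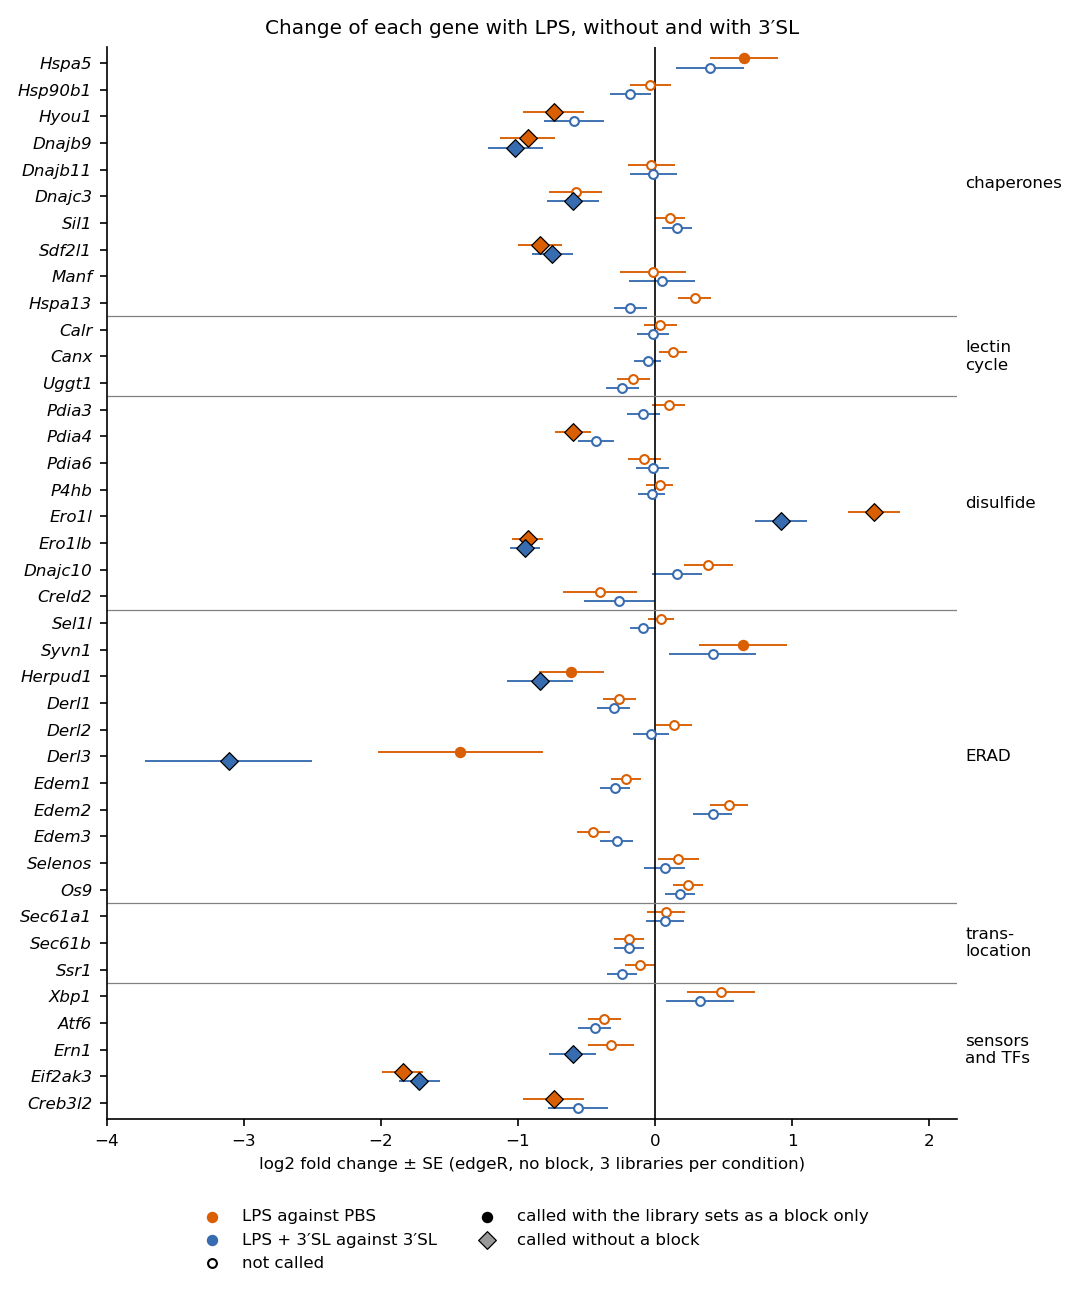
Log2 fold change ± SE of each gene with LPS against PBS (orange) and LPS + 3′SL against 3′SL (blue), edgeR fit without a block, 3 libraries per condition, with diamonds where that fit called the gene and filled circles where only the block fit did. Ero1l lies at 1.60 and 0.92, Eif2ak3 at -1.84 and -1.72, and Derl3 at -1.42 and -3.11. The medians over the 40 genes are -0.057 and -0.18, with genes on both sides of 0.

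Of the 7 genes that fell with LPS, 5 were among the 9 that the block fit called higher with 3′SL both times (Hyou1, Dnajb9, Sdf2l1, Pdia4, and Creb3l2), and 8 of those 9 were lower with LPS than with PBS by log2 fold change, Hspa5 being the other. The 8 include Manf, which differed by only -0.016 ± 0.24. Over all genes tested, 7614 of 14308 were lower with LPS by the same measure. LPS against PBS and 3′SL against PBS share the PBS libraries, and LPS + 3′SL against LPS shares the LPS libraries, so the values are set side by side without a test. The place of LPS + 3′SL relative to PBS depended on the scaling for several of them. With TMM factors, Pdia4 with LPS + 3′SL minus PBS was 0.47, 0.24, and 0.48 on the log2 scale in the 3 sets, Creb3l2 0.16, 0.32, and 0.43, and Hyou1 0.31, 0.34, and 0.055. With total counts, an alternative chosen after seeing the data, the same differences were 0.001, -0.26, and -0.27 for Pdia4, -0.30, -0.18, and -0.31 for Creb3l2, and -0.15, -0.16, and -0.69 for Hyou1. Hspa5 was above PBS with either scaling (1.21, 1.18, and 1.32 by TMM factors, 0.75, 0.68, and 0.58 by total counts), and Eif2ak3 was below it with either (-1.03, -1.18, and -1.60, and -1.50, -1.67, and -2.34).

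When LPS was given together with 3′SL and compared with 3′SL alone, edgeR again called Ero1l higher (0.92 ± 0.19, 14.3% of all genes) and 8 genes lower (14.8%). These were Eif2ak3 (-1.72), Derl3 (-3.11), Dnajb9 (-1.02), Ero1lb (-0.95), Herpud1 (-0.84), Sdf2l1 (-0.75), Dnajc3 (-0.60), and Ern1 (-0.60). With the library sets as a block 1 was higher (16.4% of all genes) and 7 lower (19.4%), Dnajc3 at -0.58 being the one lost. The 3′SL library of set 3 decided several of these calls, since without it Dnajc3 (-0.33), Sdf2l1 (-0.53), Herpud1 (-0.62), and Ern1 (-0.47) were lost and the median over the 40 genes went from -0.18 to 0.0053. Dnajc3 (-0.54 and -0.56), Herpud1 (-0.69 and -0.68), and Ern1 (-0.48 and -0.51) were also lost without the LPS + 3′SL library of set 1 or set 2.

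Whether 3′SL acted differently with LPS was tested by the interaction of both treatments. edgeR called 0 of the 40 genes and 0% of all genes, and DESeq2 called 0 of the 40 (8 higher and 36 lower of all 14308 genes). At an unadjusted edgeR p under 0.05 there were 0 higher and 2 lower, Hspa13 and Ero1l. Of all 14308 genes, 329 were higher and 543 lower at that p. With the library sets as a block 1 gene was called, Ero1l (1.55% of all genes in either direction). Its interaction was -0.68 ± 0.26 (edgeR adjusted p = 0.746), or -0.65 in the block fit (adjusted p = 0.0217, range over the alternatives 0.000428 to 1), and -0.61, -0.44, and -0.91 in the 3 sets. The block call was lost without set 1 (-0.68, edgeR adjusted p = 0.386), set 2 (-0.76, adjusted p = 0.246), or set 3 (-0.50, below the fold minimum), and under total counts (-0.48, adjusted p = 0.108). For the 9 genes called with 3′SL both times, the interactions ran from -0.26 ± 0.35 for Hspa5 to 0.19 ± 0.31 for Creb3l2, and none was called by edgeR with or without the block.

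The rest of the pathway was read from 7 other lists of genes. In the comparison of 3′SL with PBS, their median log2 fold changes were 0.0099 for 30 other ER folding enzymes, 0.20 for 32 other translocation and N-glycosylation genes, 0.15 for 26 other ERAD genes, 0.20 for 40 ER to Golgi transport genes, 0.37 for 26 genes of the PERK and ATF4 arm, 0.058 for 18 other genes of UPR signalling, and -0.029 for 34 cytosolic and mitochondrial chaperones. With LPS + 3′SL against LPS the medians were 0.05, 0.13, 0.00053, 0.10, -0.08, -0.055, and -0.051 in the same order. edgeR without a block called none of these genes in either comparison. DESeq2 called Sec24d and Trib3 higher with 3′SL alone and Txndc11 with LPS + 3′SL, Trib3 being named after its values were seen. At an unadjusted p under 0.05 there were 4, 13, 5, 17, 8, 1, and 5 genes higher in the first and 5, 10, 0, 6, 1, 2, and 1 in the second.

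The block fit called few of them higher and none lower. With 3′SL alone it called Pdia5 (0.89 on the log2 scale) of the folding enzymes, the COPII coat gene Sec24d (0.93) of the transport genes, and 4 of the PERK and ATF4 arm, of which Slc7a11 (3.97), the cystine transporter, and Chac1 (1.60), which degrades glutathione, changed most. Slc7a11 was at 6.75, 5.86, and 22.2 CPM with PBS and at 31.4, 30.5, and 482 CPM with 3′SL, so the library of set 3 set its size, and the change was 1.37 at the lowest when single libraries were left out. With LPS + 3′SL it called Txndc11 (0.68), Sec24d (0.82), and Sesn2 (0.61). It called 0 of the other translocation, other ERAD, other UPR signalling, and cytosolic and mitochondrial chaperone genes in either comparison.

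With LPS alone, edgeR called 31 of the 206 genes of these lists higher and 17 lower, beside the 18.3% and 20.2% of all genes given above. It called 0 higher and 5 lower of the other folding enzymes (Mogs -1.28 and Tmx4 -1.19 the largest), 3 and 1 of the translocation and glycosylation genes (Tram2 1.39 and Srpr 0.84, Srprb -0.64), and 3 and 1 of the other ERAD genes (Rnf139 1.63 and Ngly1 0.69, Stub1 -0.77). It called 7 and 1 of the transport genes (Sec24b 1.88 and Arf4 1.58, Mcfd2 -0.77) and 7 and 2 of the PERK and ATF4 arm (Slc7a11 3.83 and Nupr1 3.47, Sesn2 -1.25 and Cebpg -0.82). Of the other UPR signalling genes it called 4 and 2 (Cept1 2.52 and Traf2 1.94, Cdk5rap3 -1.07 and Bcl2l11 -0.67), and of the cytosolic and mitochondrial chaperones 7 and 5 (Hspa1b 3.06 and Dnaja1 1.60, Clpp -0.98 and Hsph1 -0.85).

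Exons of Hsp90b1 overlap other genes over 15.67% of their length and those of Manf over 9.25%, and exons of Sec61a1 (8.16%) and Eif2ak3 (8.05%) are overlapped on the other strand. Words of 50 nucleotides shared with other genes made up 17.43% of Sec61b, 9.26% of Ero1lb, 5.56% of Derl1, and 5.50% of Dnajb9. Counts of these genes are uncertain to that extent. The strand setting of the counting, which bears only on overlaps with the other strand, is not given in the sources used here.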

How the data were processed

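The 12 RNA-Seq libraries of BMDMs were grouped by their labels into 4 conditions of 3. Whole-number counts of reads on each gene, not normalized, were deposited by the authors. Submitters' processing notes name FastQC, Trimmomatic, STAR, HTSeq, and DESeq2 without versions, and the genome build and strand setting are not given in the sources used here. Lines for reads on no feature or on several genes were left out of library sizes. They made up 8.99–11.27% of the sum of these lines and the reads counted on genes. Alignments that were not unique, 8634639 to 11273250 per library, were also left out and are not part of that share. Identifiers were matched to GENCODE M21 (GRCm38), which named 42462 of 43626.

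Tests were run with edgeR 4.0.16 under R 4.3.3 (filterByExpr, TMM factors, quasi-likelihood test, 1 mean per condition over 12 libraries). Benjamini-Hochberg adjustment was made over 14308 genes, and a call needed an adjusted p under 0.05 and a 1.5-fold difference. SEs come from this fit. Levels are CPM, within-set changes are log2 ratios of 2 libraries without error, and the depth leaves genes of a few reads, such as Derl3, imprecise. Alternatives were DESeq2 1.42.0, other scaling and filters, only the conditions compared, the library sets as a block, and leaving out each library. Members, gene lists, and tests were chosen with earlier results of these data known. Values in every library are given for members called with the block in both 3′SL comparisons, the largest rises and falls called with LPS, the 5 sensors, and the member with the highest CPM of each step, and from other lists up to 2 genes per direction are named. Promoter sequences are from RefSeq. ChIP-Seq and animal experiments were not analysed here.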

Additional observations from a re-analysis of the deposited data

Results flagged for a closer look

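With the library sets as a block, edgeR called an interaction of LPS and 3′SL for 1 of the 40 genes. This was near the share of all genes, 1.55% in either direction. The gene was Ero1l, which was not called without a block. Its interaction was -0.65 on the log2 scale with the block (edgeR adjusted p = 0.0217, range over the alternatives 0.000428 to 1, the same sign in 3 of 3 sets). Without LPS the change with 3′SL was 0.40, 0.23, and 0.59 in the 3 sets, and with LPS it was -0.21, -0.20, and -0.32 (-0.25 in the fit), so every set moved one way in the first comparison and the other way in the second. Without a block the interaction had an edgeR adjusted p of 0.746. With the block it was also not called without set 1 (-0.68, adjusted p = 0.386), set 2 (-0.76, adjusted p = 0.246), or set 3 (-0.50, below the fold minimum), or under total counts (-0.48, adjusted p = 0.108).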

How the results depend on the processing

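Counts of genes called changed with several choices. Brackets hold the same count over all genes tested, 14308 in the main fit. Against LPS, LPS + 3′SL had 0 (0) genes called higher as reported, while total counts gave 1 (1) and DESeq2 4 (47). All genes with at least 1 count gave 1 (1), and the unadjusted p with the fold minimum kept 11 (215). Leaving out single libraries gave 0 to 1 (0 to 1). The library sets as a block gave 9 (98), with total counts 13 (137), and with DESeq2 9 (129). The block without set 3 gave 8 (161), and without a fold minimum 17 (165). For 3′SL against PBS, again from 0 (0), DESeq2 gave 6 (67) and the unadjusted p 14 (439). Leaving out single libraries gave 0 to 0 (0 to 0). The block gave 14 (283), with total counts 8 (181), with DESeq2 14 (420), without set 3 8 (196), and without a fold minimum 29 (593). For LPS against PBS, from 1 higher (2613), DESeq2's size factors gave 2 (2730), DESeq2 3 (2825), and only the conditions compared 3 (2592). The unadjusted p gave 2 (2775), no fold minimum 2 (3208), and leaving out single libraries 1 to 2 (2257 to 2659). The block gave 3 (2939), with DESeq2 3 (3112), and without a fold minimum 8 (4031). Without sets 1, 2, or 3 the block gave 3, 4, and 3 (2900, 2778, and 2763). From 7 lower (2889), total counts gave 26 (6657), and the block with total counts 26 (7400). The block without a fold minimum gave 15 (4518), and leaving out single libraries 4 to 9 (2408 to 3093). For LPS + 3′SL against 3′SL, from 1 higher (2051), total counts gave 0 (1350), and the block with total counts 0 (1515). No fold minimum gave 2 (2545), and the block without a fold minimum 5 (3383). Leaving out single libraries gave 1 to 2 (1734 to 2232). From 8 lower (2120), total counts gave 21 (4856), only the conditions compared 5 (1756), and the block with total counts 21 (5907). The block without a fold minimum gave 17 (3904), and leaving out single libraries 4 to 9 (1685 to 2155). The interaction had 0 (0) genes called lower in the main fit. The block, the block with DESeq2, the unadjusted p, and the block without a fold minimum each gave 1 (184, 370, 363, and 211). The cause of these shifts was not tested. The estimated coefficient of variation went from 0.310 to 0.133 with the sets in the fit. The sets were found in the residuals of the same counts, so this drop is no independent finding.

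Of the 17 genes higher with LPS, 16 were lower under total counts. Hspa5 and Syvn1 turned from higher to lower with LPS under total counts (-0.016 and -0.027) and with the block and total counts (-0.0091 and -0.011). The labels carry no replicate numbers, so they pair no libraries, and the block is the library sets found in the counts.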
